A study of Mus musculus with 12 samples.

Results

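Integrins are cell surface receptors made of an alpha and a beta subunit, and laminins are basement membrane proteins made of an alpha, a beta and a gamma chain. The genes described here are those of a left atrial RNA-sequencing table whose names begin with Itga or Itgb, or are Lama, Lamb or Lamc followed by a digit. Of 54658 gene names, 42 matched: 27 integrin subunits, 11 laminin chains and 4 genes that share the integrin name without being subunits. A gene was tested when its depth-scaled count (CPM) was above 1 in at least 6 of the 12 libraries, which left 37 of the 42 among 13541 tested genes. The 37 comprised 23 integrin subunits, 10 laminin chains and all 4 genes that are not subunits.

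In muscle, the alpha subunit determines which matrix protein an integrin binds, and the beta subunit connects it through talin, kindlin and the integrin-linked kinase complex to actin. The alpha7 subunit, paired with beta1, is the main laminin receptor integrin of striated muscle, and the laminin alpha2 chain is the characteristic alpha chain of the basement membrane around muscle fibres. Dystroglycan, at the outer end of the dystrophin complex, is a further laminin receptor of muscle, and laminin alpha4 and alpha5 chains are characteristic of vessel walls.

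Each library was made from 1 left atrium (LA), 6 of them from iNICD mice and 6 from control littermates. The controls carried *αMHC-rtTA*, and iNICD mice carried *αMHC-rtTA* together with *TetO-NICD*, so that the intracellular domain of Notch1 was made under doxycycline. The αMHC promoter drives the transactivator in cardiomyocytes, whereas the RNA was that of whole atrial tissue. Both groups, controls included, ate doxycycline chow for 3 weeks without washout, starting at 2 to 3 months of age. The control group held 4 females and 2 males, the iNICD group 3 of each sex. *Notch1*, the gene the transgene was made from, ranged from 2335 to 3311 counts in controls and from 71187 to 107667 in iNICD libraries. The total count per library ran from 21432632 to 27182038. Levels are given as normalized CPM, in which the library total is first scaled by TMM, a factor that corrects for differences in library composition. Control replicate 5 had the lowest TMM factor, 0.863, and leaving it out moved the log2 fold change of 19 of the 37 members by more than 0.1. The median of the members was then -0.04 in place of -0.06, and values without this library are given below for several of the genes it moved. No member gained or lost its call without it.

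Of the 37 tested integrin and laminin genes, 2 were higher and 1 was lower in the iNICD LA at a Benjamini-Hochberg adjusted p under 0.05, computed over the 13541 genes by the quasi-likelihood test of edgeR. *Itga7*, the laminin-binding alpha subunit of muscle, rose 1.58-fold. *Lama2*, the laminin chain of the muscle basement membrane, rose 1.45-fold. *Itga2b*, the alpha subunit of the platelet fibrinogen receptor, fell by 0.71 on the log2 scale. Over all tested genes, 2.78% were higher and 1.34% were lower, 4.12% in all, beside 8.11% of the members. The median log2 fold change of the members was -0.06, with 13 above 0 and 24 below, beside a median of -0.0061 over all tested genes. At an unadjusted p under 0.05 stood 5 of the 37 members, or 13.5%, beside 17.4% of all tested genes. Groups without any overlap were found for 2 members, *Itga7* and *Lama2*, and for 3.83% of the 13541 genes.

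**Figure D1:**
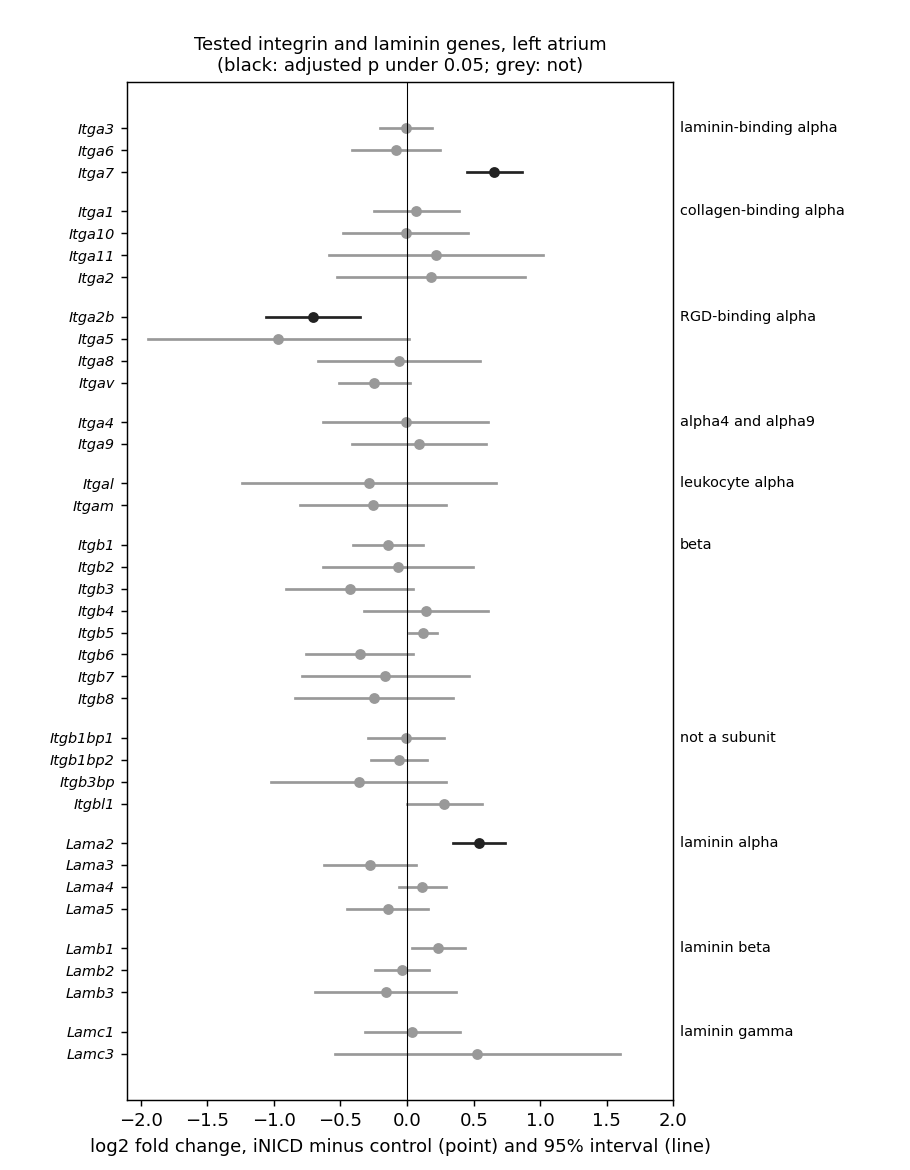
Log2 fold change of 36 of the 37 tested integrin and laminin genes, iNICD minus control (horizontal axis, points), with its 95% confidence interval (lines), grouped by role, 6 libraries per group. The intervals of Itga7 and Lama2 lie to the right of 0 and that of Itga2b to the left of 0, all in black for an adjusted p under 0.05; Itga5 has one of the widest intervals.

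The member with the lowest adjusted p was a laminin-binding integrin subunit. *Itga7* (chr10:128933818-128958282, plus strand, GRCm38) had 239, 270 and 308 normalized CPM as the lowest, median and highest control library. In the iNICD libraries the corresponding levels were 342, 435 and 492 normalized CPM. Every iNICD library was above every control library, and the lowest iNICD library, replicate 2, was female. The means were 274 ± 28.4 and 432 ± 54.9 normalized CPM (SD, n = 6 each). The log2 fold change was 0.66 (SE 0.10, 95% interval 0.45 to 0.87, adjusted p = 0.00160, edgeR), and an exact two-sided permutation test of the libraries gave p = 0.00216, the smallest that 6 against 6 allow. Because whole tissue was sequenced, more RNA per cell and a larger share of the cells that make it cannot be told apart, for this gene or any other below.

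The other laminin-binding alpha subunits did not pass the test. *Itga6*, the alpha6 subunit of endothelial and epithelial cells, had 69.1, 90.9 and 116 normalized CPM (lowest, median, highest) in controls and 64.8, 87.7 and 118 in iNICD libraries. Its log2 fold change was -0.08, with a 95% interval from -0.42 to 0.25. *Itga3*, the alpha3 subunit, had 39.4, 44.5 and 53.1 normalized CPM in controls and 36.7, 46.4 and 49.8 in iNICD libraries. The ranges of both genes overlapped almost fully, and the interval of *Itga3* ran from -0.21 to 0.19. Among the CPM per kilobase of these 3 alpha subunits, the share of *Itga7* was 60.2% to 68.9% in control and 69.4% to 81.3% in iNICD libraries, without overlap, as a description.

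*Itgb1*, the beta1 subunit that pairs with these and with most other alpha subunits of muscle, had 578, 617 and 955 normalized CPM in controls and 561, 620 and 680 in iNICD libraries. The medians of the groups were close, and the control mean was raised by its highest library. The log2 fold change was -0.14 (95% interval -0.41 to 0.12, adjusted p = 0.572, edgeR), and -0.027 without control replicate 5. The ratio of *Itga7* to *Itgb1*, both per length, was 0.162 to 0.251 in control and 0.301 to 0.414 in iNICD libraries. *Itgb1bp2*, the muscle-specific beta1-binding protein melusin, had 182, 191 and 237 normalized CPM in controls and 166, 182 and 242 in iNICD libraries. Its groups overlapped, with a log2 fold change of -0.06 (95% interval -0.27 to 0.15).

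The remaining alpha subunits fell into 4 groups by ligand. None of the 4 collagen-binding subunits (*Itga1*, *Itga2*, *Itga10*, *Itga11*) passed the test, with log2 fold changes from -0.01 to 0.21 and adjusted p values of at least 0.808 in edgeR. Neither did *Itga4* and *Itga9*, whose heterodimers bind fibronectin, VCAM1 and tenascin, with log2 fold changes of -0.01 and 0.09. Of the 5 leukocyte subunits, *Itgal* and *Itgam* were tested and did not pass, at -0.29 and -0.26, the latter -0.036 without control replicate 5. *Itgad* had 1 to 13 counts per library, *Itgae* 0 to 34 and *Itgax* 7 to 66, below the expression threshold. In GENCODE M21, *Itgam*, *Itga1* and *Itga10* share 3450, 685 and 1739 exon bases with a predicted gene on the same strand, so their counts depend on how such reads were assigned.

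The group of subunits that recognise an RGD sequence held the gene that fell. *Itga2b* (chr11:102453297-102470122, minus strand, GRCm38), known from platelets and megakaryocytes, had 3.02, 4.89 and 6.18 normalized CPM as the lowest, median and highest control library. The iNICD libraries had 2.46, 2.99 and 3.43 normalized CPM. These levels rest on 65 to 139 counts per library. Control replicate 3 lay inside the iNICD range and the other 5 controls lay above it. The means were 4.84 ± 1.08 and 2.96 ± 0.315 normalized CPM (SD, n = 6 each), with a log2 fold change of -0.71 (SE 0.16, adjusted p = 0.0286, edgeR; exact permutation p = 0.00866). Of 12 fits that each omitted 1 library, *Itga2b* passed in 3, those without control replicate 3, control replicate 5 or iNICD replicate 5, and its adjusted p ranged from 0.00542 to 0.0734 (edgeR).

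Markers of platelets and megakaryocytes were low in these libraries. The summed level of 9 such markers was 10.5 to 21.4 normalized CPM in control and 9.73 to 16.0 in iNICD libraries, most of it *Pf4*, the chemokine platelet factor 4. *Pf4* was the single marker of this list that was tested, with a log2 fold change of -0.10 (adjusted p = 0.816, edgeR). The platelet glycoproteins *Gp1bb*, *Gp5* and *Gp9* had at most 3, 6 and 6 counts in any library. The summed level of 3 erythroid markers, which follow blood in the tissue, was 47.0 to 221 in control and 23.1 to 124 normalized CPM in iNICD libraries, with medians of 138 and 47.0. The 3 had log2 fold changes of -1.31, -1.30 and -1.28, in the direction of *Itga2b*, and none of them passed the test. Their part in the level of *Itga2b* was not tested.

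The other RGD-binding subunits did not pass. *Itga5*, the alpha5 subunit of the classical fibronectin receptor, had 113, 178 and 908 normalized CPM in controls and 123, 149 and 184 in iNICD libraries. The value of 908 was that of control replicate 5, and the other 5 controls reached at most 204. The log2 fold change was -0.97 (95% interval -1.94 to 0.01) with that library and -0.16 without it. *Itgav*, which pairs with several beta subunits, was at -0.25 (95% interval -0.51 to 0.02), and *Itga8* at -0.06. Without control replicate 5 they were at -0.13 and -0.22.

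None of the 8 tested beta subunits passed the test. *Itgb5*, a partner of the alphaV subunit, had the lowest adjusted p of the 8, 0.230 (edgeR), with a small difference, 135 ± 7.21 in controls and 147 ± 4.52 normalized CPM in iNICD libraries (SD, n = 6 each). For this gene 4 of 6 iNICD libraries were above every control. *Itgb3*, the partner of *Itga2b* in platelets, had a log2 fold change of -0.43 (95% interval -0.91 to 0.05), and -0.28 without control replicate 5. The leukocyte subunit *Itgb2* was at -0.07, and *Itgb2l* had 0 counts in every library. Of the genes that carry the integrin name without being subunits, *Itgb1bp1* was at -0.01, *Itgb3bp* at -0.36 and *Itgbl1* at 0.28, none past the threshold.

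Laminin alpha chains gave the other gene that rose. *Lama2* (chr10:26980036-27619758, minus strand, GRCm38) had 133, 162 and 178 normalized CPM as the lowest, median and highest control library. The iNICD libraries had 191, 236 and 269 normalized CPM, each above every control. The lowest iNICD library was again replicate 2, and the highest was replicate 1. The means were 159 ± 15.3 and 231 ± 27.0 normalized CPM (SD, n = 6 each), a log2 fold change of 0.54 (SE 0.09, 95% interval 0.35 to 0.73, adjusted p = 0.00386, edgeR; exact permutation p = 0.00216). Of its 16338 exon bases, 631 are shared with the gene *Gm48084* on the opposite strand. The methods of the study call the reads stranded, but the sources used here do not state whether counting used strand. For *Itga7* such an overlap covers 9 bases, with *Mettl7b*.

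The control of Notch target genes passes through the DNA-binding protein RBPJ, whose core recognition letters are TGGGAA. In the 250 bases before the transcription start, RefSeq promoters (GRCm38.p6) held these letters on either strand in 5 of 28 entries of the tested members, or 17.9%, beside 21.6% of all 32851 entries. An entry was found for 25 of the 37 members, *Itga7* not among them, and the 4 genes with the letters were *Lama2*, *Lamb1*, *Lamb3* and *Itga2b*. The sequences of the members past the threshold that held the letters are shown 5′ to 3′ on the gene's strand, with the match in capitals. For *Lama2* the 250 bases at chr10:27616943-27617192 (minus strand) are given, with the match at -21 to -16 from the RefSeq start. For *Itga2b* the 30 bases at chr11:102470035-102470064 (minus strand) are given, with the match on the opposite strand, read here as TTCCCA, at -169 to -164. GENCODE M21 starts both genes further upstream than RefSeq, so that both stretches lie inside the gene positions given above.
Lama2: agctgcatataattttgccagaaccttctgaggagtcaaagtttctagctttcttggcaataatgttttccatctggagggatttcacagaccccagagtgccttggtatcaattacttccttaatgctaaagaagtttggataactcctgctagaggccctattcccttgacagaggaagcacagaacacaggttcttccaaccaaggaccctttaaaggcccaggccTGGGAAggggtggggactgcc
Itga2b: catggttatactTTCCCAggcagaaaggga
Of these genes *Lama2* rose and *Itga2b* fell, while *Lamb1* and *Lamb3* did not pass the test.

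The vascular alpha chains did not pass the test. *Lama4* had 146, 166 and 216 normalized CPM in controls and 175, 184 and 199 in iNICD libraries, with a log2 fold change of 0.11 (95% interval -0.06 to 0.29). *Lama5* had 67.3, 72.6 and 102 normalized CPM in controls and 58.7, 61.3 and 99.2 in iNICD libraries, with 4 iNICD libraries below every control. Its log2 fold change was -0.15 (95% interval -0.45 to 0.16), and -0.053 without control replicate 5. Over the 12 fits with a library left out it ranged from -0.27 to -0.053. In the CPM per kilobase of the laminin alpha chains, *Lama2* made up 28.0% to 35.1% in control and 36.7% to 44.3% in iNICD libraries, without overlap, as a description. *Lama4* made up 41.6% to 53.3% and 40.8% to 45.6%, and *Lama5* 17.6% to 27.6% and 13.9% to 21.5%, with overlap between the groups. *Lama1*, the alpha chain of embryonic basement membranes, had 0 or 1 count per library.

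The beta and gamma chains that assemble with these alpha chains did not pass the test. *Lamb1*, the beta1 chain, had 166, 206 and 228 normalized CPM in controls and 187, 248 and 259 in iNICD libraries. All iNICD libraries but replicate 2 were above every control. The means were 204 ± 20.5 and 240 ± 27.0 normalized CPM (SD, n = 6 each), with a log2 fold change of 0.23 (95% interval 0.04 to 0.43, adjusted p = 0.198, edgeR). *Lamb2*, the beta2 chain of mature muscle, had 546, 625 and 791 normalized CPM in controls and 551, 619 and 699 in iNICD libraries, with a log2 fold change of -0.04 (95% interval -0.24 to 0.16). *Lamc1*, the gamma1 chain found in most laminins, had 290, 378 and 617 normalized CPM in controls and 332, 452 and 469 in iNICD libraries, at 0.04 (95% interval -0.32 to 0.40), and 0.18 without control replicate 5. *Lamb3*, a chain of epithelial basement membranes, was at -0.16.

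**Figure D2:**
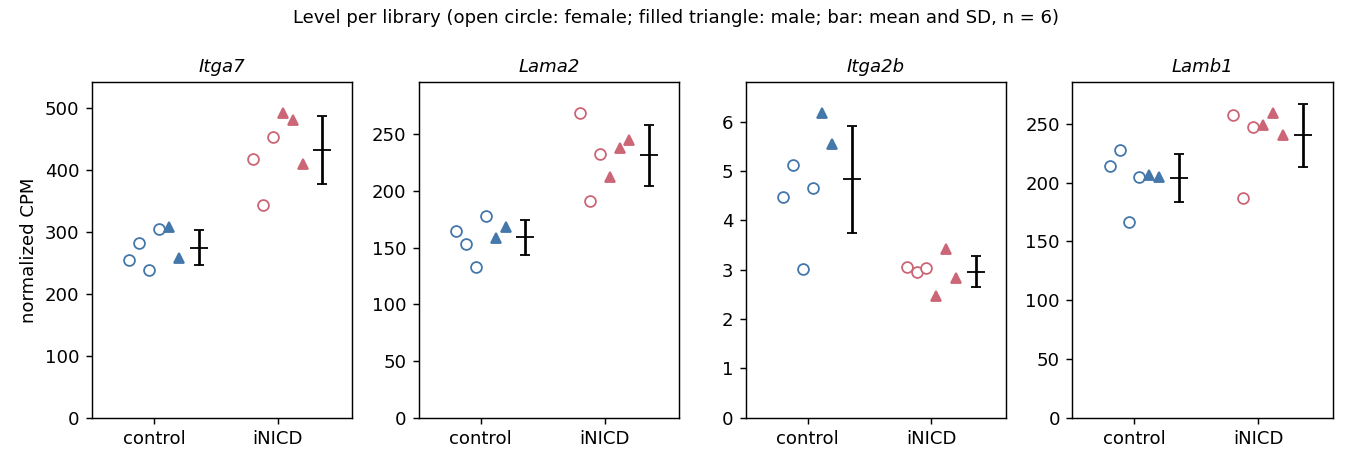
Normalized CPM (vertical axes, from 0) of Itga7, Lama2, Itga2b and Lamb1 in each library, open circles for female and filled triangles for male mice, with the mean and SD of each group (n = 6). The 6 iNICD libraries of Itga7 and Lama2 lie above the 6 controls, 1 control of Itga2b lies among the iNICD libraries, and 1 iNICD library of Lamb1 lies among the controls.

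Divided by gene length, the levels spanned more than 2 orders of magnitude. *Itgb1* was the most abundant member, with a mean of 167 ± 35.9 normalized CPM per kilobase in controls (SD, n = 6). *Itgb1bp2* and *Lamb2* followed at 110 ± 11.4 and 105 ± 13.9, which did not differ beyond their spread. *Itga5*, at 58.4, owed its place to control replicate 5. *Lamc1*, *Itgb5* and *Itga7* came next in controls, at 50.4, 38.1 and 33.9 normalized CPM per kilobase, and *Itga7* was rank 7 there. In the iNICD libraries *Itga7* was rank 4 at 53.4 ± 6.78, within its spread of *Lamc1* at 51.8 ± 6.29. *Lama2* moved from rank 11 at 9.74 ± 0.939 to rank 10 at 14.2 ± 1.65 normalized CPM per kilobase. *Lama4*, at 14.2 ± 1.96 in controls and 15.4 ± 0.697 in iNICD libraries, stood above *Lama2* in controls and within the spread of *Lama2* in iNICD libraries. The least abundant tested members, *Itga10*, *Itga4*, *Lama3* and *Itga2*, had means from 0.253 to 0.435 in either group.

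**Figure D3:**
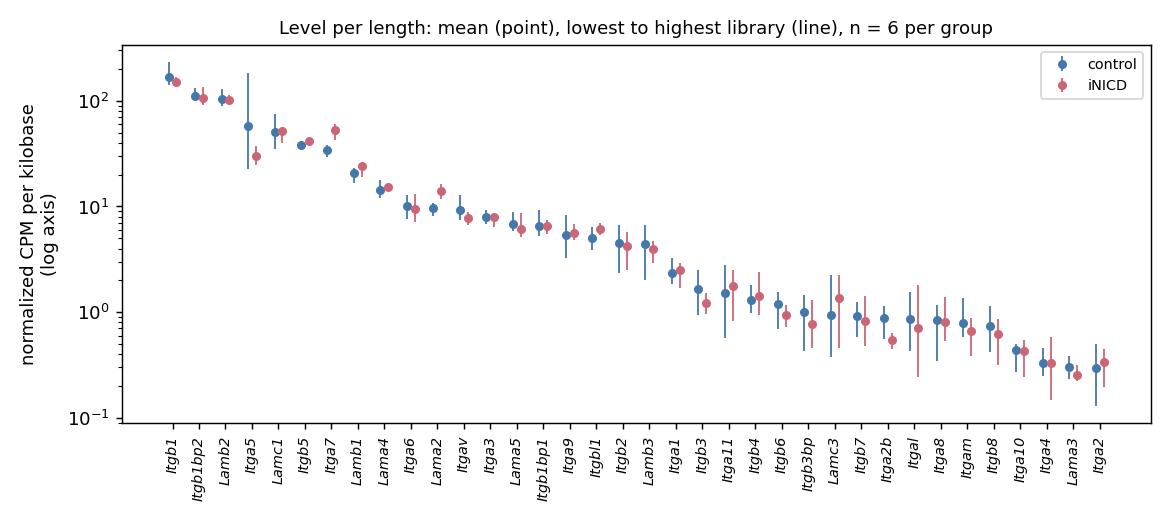
Normalized CPM per kilobase (vertical log axis) of 36 of the 37 tested members, ordered by the control mean, with points for the mean and lines from the lowest to the highest library of each group (n = 6). Itga7 and Lama2 show iNICD lines above the control lines, and the control line of Itga5 reaches far above its own iNICD line.

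Genes that act with integrins and laminins were taken from 4 lists. Of 31 tested genes of the adhesion complex, which ties integrins to actin, none passed at an adjusted p under 0.05 (edgeR), with 4 at an unadjusted p under 0.05, beside 4.12% and 17.4% of all tested genes. The list had a median log2 fold change of -0.13. *Tln1*, *Vcl* and *Ilk*, which encode talin, vinculin and the integrin-linked kinase, were at -0.24, 0.00 and -0.23 with all libraries. Without control replicate 5 they were at -0.022, 0.099 and -0.094, and the median of the list was -0.076. DESeq2 called 2 genes of the list, *Lims2* and *Kank1*, where it called 7.84% of all tested genes, and the exact test of edgeR called *Lims2*, where it called 5.69%. *Lims2* was at -1.04, and -0.60 without control replicate 5, and *Kank1* at -0.18.

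Of 22 tested genes of other laminin receptors, 1 was higher and 1 was lower, where 4.12% of all tested genes changed. *Bcam*, an immunoglobulin superfamily receptor that binds the laminin alpha5 chain, had 376, 424 and 467 normalized CPM in controls and 538, 614 and 755 in iNICD libraries. The groups did not overlap, with a log2 fold change of 0.58 (SE 0.09, adjusted p = 0.00339, edgeR). *Dag1*, which encodes both chains of dystroglycan, had 835, 897 and 949 normalized CPM in controls and 710, 745 and 832 in iNICD libraries. These groups did not overlap either, with a log2 fold change of -0.25 (SE 0.06, adjusted p = 0.0331, edgeR), which passed in 3 of 12 fits with a library left out (adjusted p 0.0301 to 0.0811, edgeR), those without control replicate 5 or 6 or iNICD replicate 3. The muscle dystrophin gene, *Dmd*, was at 0.36 (adjusted p = 0.124, edgeR). Of the 22 genes, 6 had an unadjusted p under 0.05 (edgeR), beside 17.4% of all tested genes.

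Of 20 tested genes of other basement membrane proteins, *Col4a5*, a chain of type IV collagen, was higher and none was lower, beside 4.12% of all tested genes changed in either direction. It had 135, 153 and 167 normalized CPM in controls and 173, 187 and 224 in iNICD libraries, without overlap. The log2 fold change was 0.35 (SE 0.08, adjusted p = 0.0201, edgeR), and without iNICD replicate 1 its adjusted p was 0.0513. *Agrn*, the heparan sulfate proteoglycan agrin, was at 0.39 without overlap of the groups (adjusted p = 0.0712, and 0.0270 without control replicate 5, edgeR). *Nid2*, a laminin-binding nidogen, was at 0.31 (adjusted p = 0.0627, edgeR). *Hspg2*, which encodes perlecan, was at 0.04. An unadjusted p under 0.05 (edgeR) was found for 7 of the 20 genes, beside 17.4% of all tested genes. Among them were *Col4a3*, *Col4a4* and *Col4a6*, further chains of type IV collagen, at 0.54, 0.54 and 0.42, and *Fbln1*, which was lower, at -0.42. The chains *Col4a1* and *Col4a2* were at -0.36 and -0.41, and at 0.22 and 0.11 without control replicate 5.

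Of 20 tested genes of other integrin ligands, 1 was higher and 2 were lower, beside 2.78% and 1.34% of all tested genes. *Tnxb*, the matrix protein tenascin X, had 213, 257 and 312 normalized CPM in controls and 309, 365 and 411 in iNICD libraries. A single iNICD library, replicate 1, lay inside the control range, and the log2 fold change was 0.46 (SE 0.10, adjusted p = 0.0267, edgeR), which passed in 4 of 12 fits with a library left out, those without control replicate 5 or 6 or iNICD replicate 1 or 2 (adjusted p 0.0134 to 0.0729 over the 12, edgeR). *Ctgf* and *Cyr61*, matricellular proteins that bind several integrins, were lower, with log2 fold changes of -2.49 and -2.72 (adjusted p = 0.0107 and 0.0143, edgeR). Their fall was known when the list was written. Without control replicate 5 they were at -1.97 and -2.39. *Ctgf* had 930, 1469 and 4841 normalized CPM in controls and 152, 260 and 783 in iNICD libraries, without overlap. *Cyr61* had 36.7, 154 and 428 normalized CPM in controls and 25.3, 27.4 and 42.9 in iNICD libraries. Its level in control replicate 6 lay inside the iNICD range. *Fn1*, the fibronectin gene, was at -0.30 (adjusted p = 0.333, edgeR). Of the 20 genes, 5 had an unadjusted p under 0.05 (edgeR), beside 17.4% of all tested genes.

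**Figure D4:**
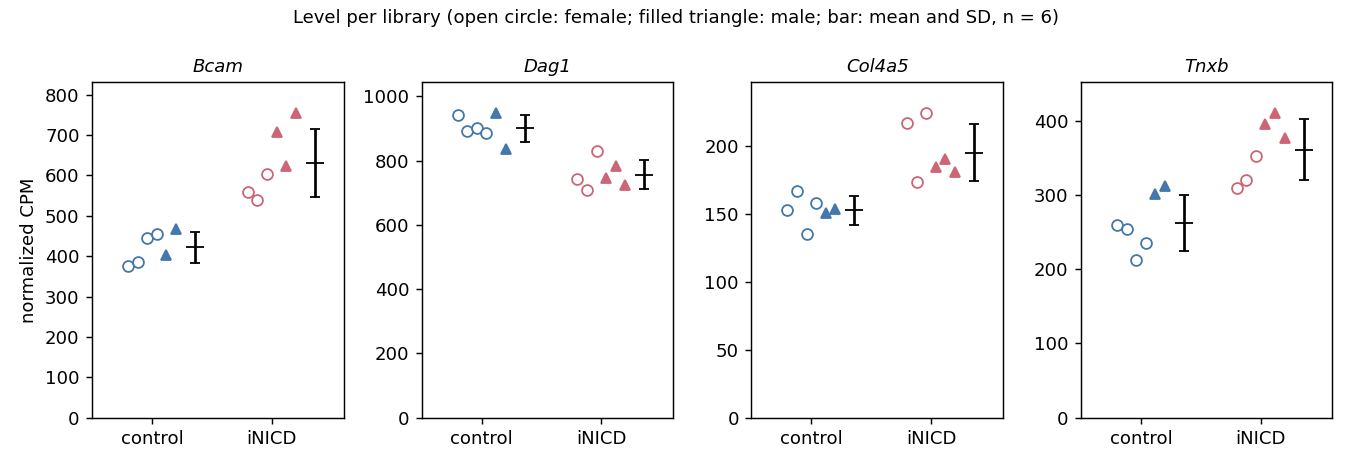
Normalized CPM (vertical axes, from 0) of Bcam, Dag1, Col4a5 and Tnxb in each library, open circles for female and filled triangles for male mice, with the mean and SD of each group (n = 6). The groups do not overlap for Bcam, Dag1 and Col4a5, and for Tnxb 1 iNICD library lies inside the control range.

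Some cell type markers differed between the groups. The summed level of 7 cardiomyocyte markers was 72877 to 84723 normalized CPM in control and 48533 to 58102 in iNICD libraries. Of the 7, 4 (*Nppa*, *Sln*, *Tnnt2*, *Myl7*) were lower, beside 1.34% of all tested genes, against the direction of *Itga7* and *Lama2*. *Nppa*, the atrial natriuretic peptide gene, went from a mean of 24221 to 4821 normalized CPM and made up most of the difference between the sums. The other 3, *Myh6*, *Actn2* and *Ryr2*, did not pass, with log2 fold changes from -0.12 to 0.07. The summed level of 5 pericyte markers was 391 to 532 and 568 to 716 normalized CPM, without overlap and in the same direction as these genes. Of these 5 markers *Cspg4* passed the test, with a log2 fold change of 1.89, where 2.78% of all tested genes were higher. It went from a mean of 46.5 to 172 normalized CPM, which made up most of the difference between the sums. The other 4 were between -0.10 and 0.21. The sums of 7 endothelial, 5 smooth muscle, 7 fibroblast and 7 macrophage markers overlapped between the groups, with no gene past the threshold. No defining marker of these lists was at 0 in every library. Their part in the levels of *Itga7* and *Lama2* was not tested.

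Sex was examined after the values had been seen, since a laminin chain separated by it. In a model with sex and genotype, 39 of 13541 genes, or 0.288%, differed between the 7 female and 5 male libraries at an adjusted p under 0.05 (edgeR), and 1 of the 37 members was among them. *Lamc3*, the gamma3 chain (chr2:31887291-31946539, plus strand, GRCm38), had 2.29 to 6.20 normalized CPM in female and 8.10 to 13.8 in male libraries. The sexes did not overlap in either genotype. The means were 3.63 ± 1.28 (SD, n = 7) and 11.7 ± 2.35 (SD, n = 5), with a log2 fold change of 1.64, male minus female (SE 0.21, adjusted p = 0.00606, edgeR). Between genotypes *Lamc3* had a log2 fold change of 0.53 (adjusted p = 0.619, edgeR), and 0.32 with sex as a covariate. In the annotation 382 of its exon bases are shared with *Gm13441* on the opposite strand.

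**Figure D5:**
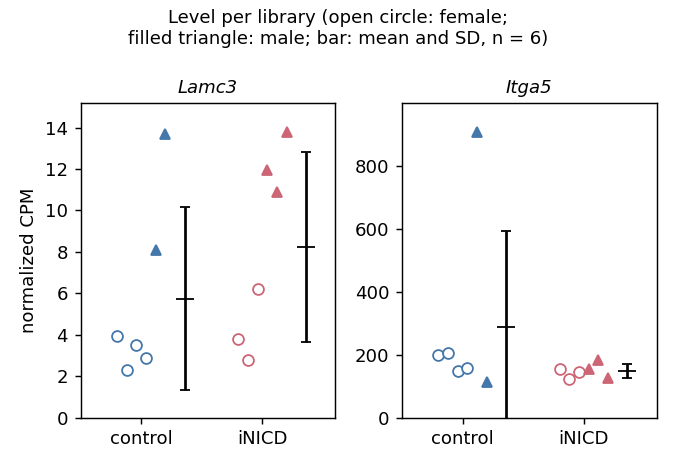
Normalized CPM (vertical axes, from 0) of Lamc3 and Itga5 in each library, open circles for female and filled triangles for male mice, with the mean and SD of each group (n = 6). The triangles of Lamc3 lie above its circles in both groups; 1 control library lies far above the others for Itga5, whose SD reaches below 0 and is not drawn there.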

How the data were processed

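RNA from the LA of 12 mice was sequenced after removal of ribosomal RNA as 50-base single-end reads. The authors deposited raw, unnormalized counts for 54658 gene names and a length in bases per gene name, a further column. The submitters' processing notes name cutadapt, STAR 2.4.2a, Subread with featureCounts, edgeR and mm10. The methods of the study describe a route through STAR and featureCounts and another through TopHat2 and HTSeq, the latter without mitochondrial reads. The table does not name its route, and it holds 37 mitochondrial gene names. The lengths of the 42 members equalled the union of their exons in GENCODE M21 (GRCm38), which was used for positions.

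Genotype, replicate number and sex came from titles and descriptions, and replicates were separate mice. No pair of libraries of a group agreed within sampling noise (lowest chi-square per gene 16.7). Counts of 13541 genes were scaled by TMM and compared in edgeR 4.0.16 (limma 3.58.1, R 4.3.3) by its two-sided quasi-likelihood test. P-values were adjusted by the Benjamini-Hochberg method, and 0.05 was the threshold. Standard errors were derived from the F statistic. Single levels were compared by exact permutation of the libraries. Steps were tested on simulated data. The depth of 21432632 to 27182038 counts gives few counts for genes near 1 CPM, whose precision is accordingly lower.

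The members, the 4 lists and the markers were chosen with earlier results of these data known. The lowest, median and highest library of each group are given for members past the threshold and for a set core of muscle and vascular genes. List members are named when past the threshold. A few further members and list genes were named after their values were seen. Alternatives were DESeq2 1.42.0, the exact test of edgeR, RLE and upper quartile scaling, no filter, filterByExpr, sex as a covariate, replicate blocks and each library left out. The check of sex for *Lamc3*, with DESeq2 and each library left out, was added after seeing the data. The values of 1 tested member are not reported here. Figures were drawn with matplotlib 3.10.9 in Python 3.11.15.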

Additional observations from a re-analysis of the deposited data

Results flagged for a closer look

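In 72 groups of 6 libraries, made of 36 members in each genotype, the gap of the highest or lowest library to the next was compared with the range of the group and set against Dixon's critical value. The gap was larger in 8 groups, beside about 3.6 by chance. In 2 of the 8 the library was control replicate 5, at 908 normalized CPM for *Itga5* (others 113 to 204) and at 102 for *Lama5* (others 67.3 to 76.1). When it was omitted, the log2 fold change of *Itga5* went from -0.97 to -0.16. Control replicate 1 had 1.41 normalized CPM of *Itga10* (others 2.21 to 2.61), and control replicate 2 had 216 of *Lama4* (others 146 to 172).

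Among iNICD libraries, replicate 6 had 31.3 normalized CPM of *Itga1* (others 46.6 to 54.6) and 17.0 of *Itgb4* (others 6.66 to 9.32). Replicate 1 had 10.2 normalized CPM of *Itga8* (others 3.94 to 5.94). Replicate 2 had 187 of *Lamb1* (others 241 to 259), and no member named here passed the test between genotypes.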

How the results depend on the processing

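The count of members that were higher was 2 under every alternative run, and *Itga7* and *Lama2* passed in all 12 fits with a library left out and in the 9 other alternatives, with log2 fold changes from 0.61 to 0.72 and from 0.49 to 0.59. The count of members that were lower was 1, and 0 without a filter on low counts (29835 genes tested) and with a replicate block by title or by description number, and 0 to 1 with a library left out. *Itga2b* passed in 6 of the 9 other alternatives, with log2 fold changes from -0.73 to -0.68. Of the adhesion complex 2 genes were called by DESeq2, 1 by the exact test and 0 to 1 with a library left out. Of the other laminin receptors 3 genes were called by DESeq2, 3 with RLE size factors and 3 with sex as a covariate, 1 by the exact test, 1 without a filter, 1 with either block, and 1 to 4 with a library left out, the 4 without control replicate 6. Of the other basement membrane genes 3 were called by DESeq2, 3 by the exact test and 3 with sex as a covariate, each time *Agrn*, *Col4a5* and *Nid2*. With the block by title number *Agrn* alone was called, and 0 genes with the block by description number. With a library left out the count was 0 to 2. Over all tested genes DESeq2 called 7.84%, the exact test 5.69% and the fit with sex as a covariate 4.96%, beside 4.12%. The cause was not tested.

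Direction turned for members that passed nowhere. With sex as a covariate the log2 fold changes were 0.011 for *Itga3*, 0.071 for *Itga4* and 0.030 for *Itga8*. With the block by either number *Itgb1bp1* was at 0.0078. With a library left out the ranges were -0.12 to 0.11 for *Itga10*, -0.052 to 0.042 for *Itga3*, -0.25 to 0.14 for *Itga4*, -0.28 to 0.061 for *Itga8*, -0.018 to 0.25 for *Itga9*, -0.066 to 0.11 for *Itgb1bp1*, -0.20 to 0.080 for *Itgb2*, -0.072 to 0.25 for *Itgb4*, -0.083 to 0.031 for *Lamb2* and -0.045 to 0.18 for *Lamc1*.

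Same-numbered libraries of the groups did not deviate together in every pair: 4 of 6 pairs correlated above 0.1 (r from -0.15 to 0.37), and 5 of 12 libraries correlated best with their own number. The replicate block gave 468 calls over all genes by title number and 421 by description number, without *Itga2b*, *Dag1*, *Col4a5* and *Cyr61* under either, beside 558 without it and 796 without control replicate 5. DESeq2 made 1059 calls and gave no adjusted p for *Itga5*. The difference of *Lamc3* between the sexes passed in all 12 fits with a library left out (1.46 to 1.83) and was 1.65 in DESeq2. Members near 1 CPM rest on few counts per library, such as 20 to 89 for *Itga2*, which limits what could be detected.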
